A study of Homo sapiens with 4 samples.

Results

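The probes described here are those that the array's annotation assigns to long intergenic noncoding RNAs under names that begin with lnc-. They were taken from the scanner files as every gene probe (no control spot) whose systematic name starts with lnc-, without use of any measured value. There were 8298 such probes among 58201 gene probes (14.3%), for 7900 transcripts of 7042 lnc- genes, and each was printed as 1 spot on an array. Protein-coding transcripts of RefSeq (names starting with NM_, 25834 probes) served as the comparison. The cells were HML58-3, a derivative of the human colorectal cancer line HCT116 that carries a luciferase reporter behind a methylated promoter. They were mock-treated or exposed to decitabine (DAC), OR-2003 or OR-2100 (values below keep this order of the drugs), with the drugs dissolved in DMSO and used at 1 µM from day 1, and total RNA was taken on day 5. DAC is a deoxycytidine analogue that traps DNA methyltransferase in DNA, so that methylation is lost as cells divide, and OR-2003 and OR-2100 are prodrugs of it. Each condition was measured on 1 array, so no test, SD or p-value can be given, and all 3 drugs were set against the same mock array.

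Long intergenic noncoding RNAs are transcribed between protein-coding genes and carry no long reading frame. Most are made at low levels and in few cell types, and many arise from promoters shared with, or close to, those of coding genes. Methylation of CG pairs in a promoter is a known way of keeping such transcripts, like germline genes and retroelements, silent in somatic and cancer cells. A name such as lnc-VIM-1:5 gives the symbol of a nearby coding gene (VIM), the number of the noncoding gene and, after the colon, its transcript. It says where the RNA was placed by the catalogue and nothing of its function.

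RefSeq listed 10 of the lnc- genes (13 probes) as synonyms of its own noncoding genes, and held a promoter for 7 of them. The promoters of the matched genes whose probes rose with all 3 drugs are shown, from GRCh38.p14 and 5′ to 3′. CG, a C followed by a G, at whose C DNA is methylated, is in capitals. Each window runs from 250 bases before to 50 after the start that RefSeq gives, which need not be the start of the transcript under the probe. LINC02682, which RefSeq lists under lnc-SOX6-1, lies on the plus strand at chr11:15910683-15910982. MAGEB17-AS1, listed under lnc-AP1S2-2, lies on the minus strand at chrX:16168630-16168929.
LINC02682: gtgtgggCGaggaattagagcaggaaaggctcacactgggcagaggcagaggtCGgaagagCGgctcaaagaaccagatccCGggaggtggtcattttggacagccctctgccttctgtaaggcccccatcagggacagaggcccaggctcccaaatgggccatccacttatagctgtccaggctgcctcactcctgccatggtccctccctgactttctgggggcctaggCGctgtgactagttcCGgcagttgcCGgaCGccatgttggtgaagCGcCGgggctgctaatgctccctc
MAGEB17-AS1: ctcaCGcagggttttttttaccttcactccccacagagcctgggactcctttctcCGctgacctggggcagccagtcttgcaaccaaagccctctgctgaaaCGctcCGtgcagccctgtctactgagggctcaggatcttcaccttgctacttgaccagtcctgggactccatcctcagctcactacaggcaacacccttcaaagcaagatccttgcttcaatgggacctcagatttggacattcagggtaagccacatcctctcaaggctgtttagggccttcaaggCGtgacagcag

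The window of LINC02682 held 10 CG and that of MAGEB17-AS1 held 5. The median over all 35116 promoters in the table was 14, and 56.4% and 70.4% of them held at least as many. Neither window was therefore rich in CG. The lnc-SOX6-1:1 probe read 0.75 without drug and 2.31, 2.77 and 2.28 with the drugs. These are log2 levels, on which the 75th percentile of gene probes of each array is 0. The lnc-AP1S2-2:1 probe read -0.51 and then 1.36, 1.47 and 1.83, while the other probe of that gene, lnc-AP1S2-2:3, was well above background on the 3 drug-treated arrays only, at -3.23, -3.23 and -3.32. All 3 probes were thus higher with each drug than on the mock array. The other matched genes were dim or not detected.

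The lnc- probes were detected less often after treatment, while the coding probes were detected more often. On the mock array 2600 lnc- probes (31.3%) were well above background by the scanner software's own call, against 2356 with DAC (28.4%), 2513 with OR-2003 (30.3%) and 2351 with OR-2100 (28.3%). Of the NM_ probes, 19179 were detected on the mock array (74.2%) and 20326, 20497 and 20384 with the drugs (78.7%, 79.3% and 78.9%). The lowest log2 level that counted as well above background was -4.29 without drug and -4.42, -4.38 and -4.55 on the others. That is the lowest passing level on a scale set per array, while the call is made for each spot. Whether the call was harder to pass on the drug-treated arrays was not tested.

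Every lnc- probe is accounted for as follows. There were 1803 probes (21.7%) well above background on all 4 arrays (called measured on all arrays below), where NM_ probes reached 70.9%, and 5160 (62.2%) on none, where NM_ probes reached 17.4%. Switched on is used here for probes that passed the scanner's background call with all 3 drugs but not without drug, and no longer detected for the reverse. There were 213 lnc- probes switched on and 300 no longer detected, and the other 822 had mixed patterns. Of all 58200 gene probes, 4.77% were switched on and 2.38% no longer detected, and of the lnc- probes 2.57% and 3.62%. Among NM_ probes weighted to the same signal, 6.73% were switched on and 3.18% no longer detected. For NR_ probes so weighted the shares were 4.90% and 3.62%, and for ENST probes 3.39% and 3.61%. Losses of detection thus outnumbered gains among the lnc- probes, and among all NM_ probes gains led, with 1518 against 344. Where the signal also had to differ 2-fold from the mock array with each drug, 162 lnc- probes were switched on and 116 no longer detected, so the order of gains and losses turned.

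The highest new levels were read by probes under the background call without drug. The lnc-DLK1-6:9 probe, named after the imprinted gene DLK1, read -5.57 without drug, below its background limit, and 3.85, 3.96 and 3.92 with the drugs. That was at least 282-fold, 304-fold and 295-fold higher, a bound set against the lowest signal well above background. The lnc-BTBD10-3:10 probe went from -5.21 to 3.00, 2.98 and 2.90, at least 145-fold higher with each drug. The lnc-VIM-1:5 probe, named after the gene of the mesenchymal filament protein vimentin, went from -6.24 to 0.34, 0.25 and 0.15. The drug-treated arrays lay close to each other and far above the mock array for each of these. Of the same kind were lnc-SNX10-1:1 (1.18, 1.06 and 1.05 with the drugs), lnc-ACTRT2-1:2, lnc-AC005323.1.1-1:1, lnc-CCDC152-1:1, lnc-C22orf34-1:1, lnc-MN1-2:1 and lnc-TIGD2-1:1, which read between 0.055 and 1.19 on every drug-treated array. Few probes came on so strongly: over the 213 the median bound was 1.90-fold, 43 reached a bound of 4-fold with every drug, and for 6 the bound was under 1 so that no fold can be given.

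Other probes of the same noncoding genes moved the same way in most cases, which is no replicate of the treatment, since they share the RNA. lnc-VIM-1:2 was switched on too, at -2.56, -2.05 and -2.38. lnc-BTBD10-3:9, lnc-C22orf34-1:3 and lnc-DLK1-6:1 were also switched on, as was lnc-DLK1-9:1, a probe of another lnc- gene named after DLK1. The exception was lnc-DLK1-6:2, well above background on 2 arrays, with -3.70 on the mock array and -4.22, -4.09 and -4.30 with the drugs. DLK1 itself, a membrane protein related to Notch ligands, was under the background call without drug and read 0.30, 0.39 and 0.59 with the drugs.

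Losses of signal were held to smaller bounds. The lnc-HARS-1:1 probe, with the highest mock level of those no longer detected, read -1.72 without drug and -5.45, -6.05 and -6.16 with the drugs, at least 6.34-fold lower with each. lnc-EIF4EBP1-1:1, lnc-MAP1LC3B2-2:6, lnc-ARID2-2:1 and lnc-AC079135.1.1-1:1 read from -2.19 to -1.95 on the mock array. The median bound over the 300 was 1.43-fold, and 7 reached 4-fold with every drug.

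The second measure used the thresholds of the study for induction. Induced probes were at least 2-fold above the mock array and at a log2 level of -1 or more with the drug. The mirror image of that rule was added here: reduced probes were at least 2-fold lower and at -1 or more on the mock array. On the mock array 538 lnc- probes were that bright, and 471, 493 and 485 after treatment. Induced were 47 lnc- probes with DAC, 56 with OR-2003 and 53 with OR-2100, and 45 with all 3. Over all gene probes 3.44%, 3.53% and 3.50% were induced by the same rule, and 3.13% by all 3, so that lnc- probes (0.567%, 0.675% and 0.639%, and 0.542% for all 3) were called far less often. Among all NM_ probes 5.71%, 5.78% and 5.71% were induced. At like signal the gap was smaller, but that signal was the mean of the 4 arrays and so included the drug-treated levels. NM_ probes weighted in this way to the signal of the lnc- probes were induced in 1.17%, 1.21% and 1.22%. The lnc- share was 0.484, 0.557 and 0.523 times theirs. The bins of signal were cut at quantiles of all lnc- probes. Of these 6.48% reached -1 on the mock array, against 53.8% of NM_ probes. Calls thus fell mostly in the brighter bins, the top bin has no upper edge, and signal was not matched further within a bin. With 10 bins the ratio was 0.545 with DAC and 0.629 with OR-2003. When like signal was set on the mock array alone, the lnc- share was 0.0901, 0.105 and 0.0983 times that of NM_ probes, so the gap was not smaller there. With a level of 0 in place of -1, and like mean signal, the lnc- share was 0.725 to 0.753 times theirs. At like mean signal noncoding RefSeq probes (NR_) were induced in 1.43%, 1.52% and 1.57%, and Ensembl-only probes (ENST) in 0.83%, 0.91% and 0.87%.

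Reduced were 90 lnc- probes with DAC, 90 with OR-2003 and 78 with OR-2100, and 69 with all 3. The shares over all gene probes were 4.03%, 4.07% and 4.49%, and 3.41% for all 3. The lnc- shares were 1.08%, 1.08% and 0.940%, and 0.832% for all 3. Of NM_ probes of like signal 1.29%, 1.32% and 1.41% were reduced, which makes ratios of 0.841, 0.823 and 0.665. The limit on matching by bins holds here too. Reduced calls outnumbered induced calls with each drug, but that order rested on the processing. With all 3 drugs the counts of induced and reduced probes were 45 and 69, and became 51 and 41 with the scale set on probes measured on all 4 arrays, 38 and 28 with normexp background correction, and 27 and 11 at 4-fold.

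**Figure D1:**
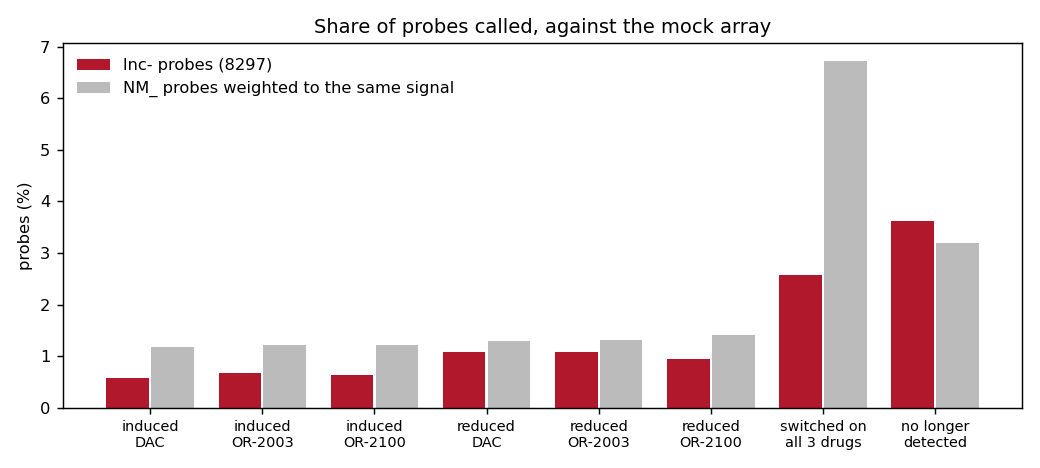
Percent called of the 8297 lnc- probes without a marked spot on any array (red) and of NM_ probes weighted by signal bin (grey). The calls are induced, reduced, switched on or no longer detected against the mock array. The lnc- bar is lower in every comparison but the last, 3.62% against 3.18%.

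Among lnc- probes measured on all 4 arrays, the highest rise was that of lnc-INPPL1-1:1. It read -2.32 without drug and 2.45, 2.52 and 2.63 with the drugs, which was 27.3-fold, 28.7-fold and 30.9-fold higher. The other probe to the same transcript, under the background call without drug, read -4.51 there and -0.11, -0.25 and -0.064 with the drugs. INPPL1, the gene of an inositol phosphatase, differed by 0.31 on average. The lnc-AMZ2-1:1 probe read -2.31 and then 2.0, 2.05 and 2.10, at 19.9-fold to 21.3-fold higher, while AMZ2, a zinc metalloprotease gene, differed by -0.67. lnc-OR6C70-1:2 rose 11.5-fold, 12.7-fold and 11.01-fold, although the olfactory receptor gene in its name was not well above background on any array. The other 7 of the 10 were lnc-ASMT-5:1, lnc-EPB41-1:2, lnc-BARHL2-1:2, lnc-FRK-1:1, lnc-POLN-1:1, lnc-VRK2-1:2 and lnc-SEPT7L-1:1, with mean log2 differences between 2.58 and 3.45. For none of the 10 did the level without drug reach those with a drug, as the choice by size of difference requires. With normexp correction the mean differences of lnc-INPPL1-1:1, lnc-AMZ2-1:1 and lnc-OR6C70-1:2 were 3.34, 2.85 and 2.25, and that of lnc-EPB41-1:2 went from 2.93 to 0.85.

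The deepest fall was that of lnc-SLC4A1AP-1:8, from 1.16 on the mock array to -3.47, -3.27 and -2.81, which was 24.8-fold, 21.5-fold and 15.6-fold lower. SLC4A1AP differed by 0.35. lnc-C2orf27B-3:2 went from 2.19 to -1.29, -1.20 and -1.23, or 11.1-fold, 10.4-fold and 10.7-fold lower. With normexp correction their mean differences went from -4.34 to -2.44 and from -3.43 to -2.61. Some symbols recurred among the probes that fell. Of 4 probes named after ARHGAP26, a GTPase-activating protein, 3 were called reduced by all 3 drugs (mean differences -2.65, -2.23 and -1.39), and ARHGAP26 itself fell from 1.97 to 0.12, 0.16 and 0.19. Of 3 probes named after TBC1D19, lnc-TBC1D19-2:1 and lnc-TBC1D19-3:1 were reduced (-2.86 and -2.28 on average) and lnc-TBC1D19-4:4 differed by -0.47, while TBC1D19 went from 1.90 to 0.42, 0.58 and 0.60. Of 4 named after ARID2, a subunit of a chromatin remodelling complex, lnc-ARID2-3:1 and lnc-ARID2-3:7 were reduced, lnc-ARID2-2:1 was no longer detected and lnc-ARID2-1:1 differed by -0.043. The remaining fallers by the same rule were lnc-CALM2-1:1, lnc-AC004980.12.1-1:1 and lnc-FAM113B-5:1, with -2.40, -2.32 and -2.27.

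Among the 1803 lnc- probes measured on all arrays, called or not, the median log2 difference was -0.33 with DAC, -0.24 with OR-2003 and -0.31 with OR-2100, and 74.8%, 69.0% and 73.9% of them lay below 0. NM_ probes of like signal had medians of -0.18, -0.14 and -0.19, with 60.02%, 58.4% and 61.6% below 0. The lnc- median was thus 0.15, 0.10 and 0.12 lower. The zero of the scale is set by each array, so a median below 0 is relative to the 75th percentile, and it was -0.13, -0.043 and -0.091 with the scale set on probes measured on all 4 arrays. A shift of that zero does not alter the gap between the classes. When like signal was set on the mock array alone, the lnc- median lay at -0.35, -0.27 and -0.31 relative to NM_ probes. It lay at -0.029, -0.026 and -0.014 over all probes, detected or not, and at -0.064, -0.040 and -0.051 with normexp correction, so the size of the gap rested on the processing.

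The gap was seen across the range of signal except in the brightest bin. In 10 bins of signal the lnc- median lay below the NM_ median in 10 with DAC, 9 with OR-2003 and 10 with OR-2100. With each drug the medians lay closest in the brightest bin, where the lnc- median lay at -0.020, 0.0053 and -0.013 relative to NM_ probes. Other noncoding and predicted transcripts lay in between or beside the lnc- probes: noncoding RefSeq probes (NR_) of like signal had medians of -0.30, -0.22 and -0.30, and Ensembl-only probes (ENST) -0.28, -0.23 and -0.26. Most lnc- probes belong to probe series (8043 with names starting A_19, A_21 or A_22) that hold few NM_ probes (1045). NM_ probes of those series had unweighted medians of -0.25, -0.24 and -0.29, and those of other series -0.16, -0.16 and -0.20. The 93 measured lnc- probes of other series had medians of -0.37, -0.26 and -0.29, and lay at -0.20, -0.12 and -0.093 relative to NM_ probes of like signal.

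The 3 drugs were compared at the same dose and times, in 3 pairs, without a test because each was on 1 array. Of the 1803 lnc- probes, 2 were 2-fold apart between DAC and OR-2003, both higher with OR-2003, and the SD of the difference across probes was 0.27. Between DAC and OR-2100, 16 were 2-fold apart (6 higher and 10 lower with OR-2100, SD 0.34), and between OR-2003 and OR-2100, 36 (4 higher and 32 lower with OR-2100, SD 0.37). All of these were dim: where both arrays read -1 or more there was no such probe among 444, 444 and 451. NM_ probes of like signal were 2-fold apart in 0.157%, 0.483% and 0.839%, and lnc- probes in 0.111%, 0.887% and 1.997%. With normexp correction no lnc- probe was 2-fold apart in any pair.

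The 5 lnc- probes for which OR-2100 lay farthest from the mean of the other drugs were lower with it. lnc-TASP1-5:2 read -1.17 on the mock array, -1.84 with DAC and -1.57 with OR-2003, and -3.44 with OR-2100. lnc-MESP2-1:1, lnc-LENG9-2:1, lnc-CHAD-5:1 and lnc-PPRC1-1:1 read between -2.95 and -2.29 with DAC or OR-2003 and between -4.39 and -3.92 with OR-2100. Between the other pair, lnc-AGRP-3:2 read -4.32 with DAC and -3.14 with OR-2003, and lnc-VMO1-1:1 -3.68 and -2.68, next to mock levels of -3.44 and -2.35. Of these levels, those of lnc-TASP1-5:2 on the mock, DAC and OR-2003 arrays stood well above the background limit. The lowest levels stood near it, and 1 spot per array cannot separate the drugs.

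Because the names carry coding symbols, each lnc- probe could be set beside its namesake. The names of 7420 probes held the symbol, current or former, of a coding gene with an NM_ probe. Of the 40 induced lnc- probes among them, the coding gene was induced in 3 (7.5%) and reduced in 1, where over all 7420 pairs it was induced in 6.28%. Of the 61 reduced lnc- probes the coding gene was reduced in 11 (18.0%) and induced in 1, where over all pairs it was reduced in 7.51%. Probes named after 1 gene share that gene's value, as with ARHGAP26 and TBC1D19, so these pairs are not independent. Across 1315 pairs measured on all arrays the mean differences had a Pearson r of 0.063 and a Spearman rho of 0.074, as a description across genes whose values share the same mock array and scale. The median lnc- difference was -0.29 where the coding gene was at least 2-fold higher (n = 89), -0.46 where it was at least 2-fold lower (n = 158) and -0.31 elsewhere (n = 1068).

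Of 192 switched-on lnc- probes with such a namesake, the coding gene was induced in 18 (9.38%) and reduced in 10. Over all pairs it was induced in 6.28% and reduced in 7.51%. The pairs named here were picked for the largest joint rise or fall. VIM rose from 0.71 to 6.98, 6.84 and 6.92, next to lnc-VIM-1:5. CCDC152 went from -5.41, not well above background, to -1.64, -1.56 and -1.51, next to lnc-CCDC152-1:1, which read 0.73, 0.94 and 0.64 with the drugs. ECRG4 (formerly C2orf40), a secreted candidate tumour suppressor, was under the background call without drug and read -1.21, -1.23 and -1.19 with the drugs, next to lnc-C2orf40-4:1, which was at least 6.78-fold, 6.0-fold and 6.72-fold higher. Pairs that fell together included lnc-ARHGAP18-2:1, no longer detected, with ARHGAP18 going from 3.00 to 0.21, 0.15 and 0.042, lnc-SLC2A12-4:1 with the glucose transporter gene SLC2A12, and lnc-KLHL31-2:3 with KLHL31.

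Of the 5 pairs most opposed, 3 were named after germline or pluripotency genes, which are known to be silenced by methylation in somatic cells, and the others were lnc-TMEM30B-1:3 and lnc-CES1-3:1. ZFP42, a pluripotency marker, was under the background call without drug and read 4.71, 4.65 and 4.79 with the drugs, while lnc-ZFP42-7:2 fell from -0.90 to -2.25, -2.06 and -2.35. The list of cancer-testis and germline genes held 23 lnc- probes for 15 symbols, of which 14 had an NM_ probe and 10 were induced by all 3 drugs. Of all coding genes with an NM_ probe, 6.07% were induced by all 3. Of the 14, 7 were under the background call without drug, so their rise has a lower bound only. None of the 23 lnc- probes was induced or switched on and 1 was no longer detected, where 0.542%, 2.57% and 3.62% of all lnc- probes were. At shares this low a list of 23 cannot be told apart from the whole class. Of the 23, 7 were well above background on any array, and 3 on all 4, with mean differences from -0.81 to 0.029. lnc-LIN28B-1:4 read -0.75 on the mock array and -1.41, -1.65 and -1.62 with the drugs, while LIN28B, an RNA-binding protein that blocks let-7, was under the background call there and read 4.47, 4.41 and 4.29 with the drugs. lnc-MAGEB10-2:1 read -1.14 without drug and -3.52, -5.53 (not well above background) and -3.62 with the drugs, next to MAGEB10, at least 36.6-fold higher with each drug. Of the 4 probes of lnc-MAGEA8-2, 1 was measured on all arrays, at -2.42, -2.25, -2.42 and -2.49, and MAGEA8, under the background call without drug, was at least 222-fold higher with each drug. The other 16 lnc- probes on the list were not well above background on any array.

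The other lists were read against the whole class, in which 45 of 8298 probes (0.542%) were induced by all 3 drugs and 213 (2.57%) switched on. In the class 69 (0.832%) were reduced by all 3 drugs and 300 (3.62%) no longer detected. At shares this low, the few reduced or lost probes of a list cannot be told apart from the whole class. Of all coding genes with an NM_ probe, 6.07% were induced by all 3. Of 50 lnc- probes named after imprinted genes, 1 was induced and 4 switched on, which were 3 named after DLK1 and lnc-RTL1-4:1, at -3.40, -3.41 and -3.40 with the drugs. The induced probe, lnc-DLK1-6:9, was 1 of those 4. Of 50 named after interferon and innate sensing genes, 1 was induced, lnc-IFNG-2:1, which was at least 13.5-fold higher with each drug, while 8 of the 24 coding genes were induced and IFNG was not well above background on any array. The same probe, lnc-IFNG-2:1, was the 1 switched on, and 1 of the 50 was no longer detected. GBP5, an interferon-induced GTPase, was at least 25.3-fold higher with each drug, and lnc-GBP5-2:3 read -2.64 on the mock array and -3.97, -4.48 and -4.38 with the drugs, the last pair not well above background. Of 137 named after homeobox and developmental factors, 2 were induced, 5 switched on (lnc-ALX1-2:1 and lnc-SIX6-1:1 among them) and 5 no longer detected (lnc-TBX15-2:1 among them), and 12 of 70 coding genes were induced. Of 43 named after Wnt and colon epithelium genes, 3 were switched on, 1 was no longer detected, 1 was induced and 1 reduced, the last lnc-TCF7L2-1:1, from -0.10 to -2.03, -2.16 and -1.69, with TCF7L2, a Wnt effector, lower by 1.73 on average. Of 35 named after p53 pathway genes 0 were induced, 1 was no longer detected and 1 reduced, lnc-ZMAT3-2:5, from 2.20 to 0.91, 0.91 and 0.88. Of 26 named after methylation and chromatin genes none was called, while CTCFL, the testis paralogue of CTCF, was at least 23.7-fold higher with each drug and lnc-CTCFL-1:1 read -2.93 without drug and -3.45, -4.43 (not well above background) and -3.28 with the drugs.

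Probes of 1 lnc- gene did not always give the same difference. Of 108 genes with 2 or more probes measured on all arrays, 77 had mean differences of 1 sign. In the 13 genes with 3 or more such probes, the range of mean differences ran from 0.15 to 1.87 with a median of 0.58. The widest was lnc-CCDC117-1, from -1.29 to 0.58 over 4 probes, in which lnc-CCDC117-1:5 turned to -0.055 with normexp correction. In lnc-UQCRFS1-9, lnc-TMED5-1 and lnc-ZSCAN10-3 at least 1 probe was over 2-fold lower on average while lnc-UQCRFS1-9:20, lnc-TMED5-1:21 and lnc-ZSCAN10-3:6 differed by -0.015, -0.086 and -0.17, values that turned positive with the scale set on probes measured on all 4 arrays. In lnc-ARRDC3-1 all 8 probes were higher with every drug, 4 of them measured on all arrays and 4 switched on. Its probe lnc-ARRDC3-1:6 read -0.49 without drug and 0.92, 1.15 and 1.27 with the drugs, or 2.65-fold, 3.11-fold and 3.39-fold higher, while ARRDC3, an arrestin-domain protein gene, differed by -0.93. In 32 transcripts read by a pair of probes, the mean differences were a median of 0.20 apart.

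The lnc- probes of highest signal on the mock array moved little. lnc-WWC2-1:1 read 10.93 there and 10.74, 10.77 and 10.64 with the drugs. Of the 10 with the highest mock level, 9 had mean differences from -0.21 to -0.074, and 8 of these were above 0 with quantile normalization and all 9 with the scale set on probes measured on all 4 arrays. The exception was lnc-BID-2:1, from 7.84 to 6.80, 6.80 and 6.54, which was 2.06-fold, 2.06-fold and 2.46-fold lower. BID, an apoptosis gene, differed by 0.070.

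The cell line was checked by its markers. Of 7 epithelial markers 6 were well above background on all arrays (KRT19 at 9.34 on the mock array), and VIL1 was not on the mock array. Markers of fibroblasts, leukocytes and endothelium read below 0 on the mock array except COL1A1 at 0.99, and PECAM1 and DCN rose with the drugs. In such bulk samples a lower level in every cell and loss of the RNA from some cells cannot be told apart.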

How the data were processed

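Total RNA of 4 cultures (mock, DAC, OR-2003 and OR-2100, 1 each) was hybridised to 1-colour 8x60K human arrays, whose design names build hg19 per the file headers. The authors deposited spot intensity from Feature Extraction 12.1.0.3, already background-corrected by that software, and a table of the same intensity values. Here, marked spots were dropped, log2 intensity was averaged per probe and each array's 75th percentile of gene probes was set to 0, with Python 3.11.15, numpy 2.4.6 and pandas 2.3.3. The thresholds were 2-fold and a log2 level of -1. Probes of like signal were taken from 20 bins cut at quantiles of the mean level of lnc- probes, the brightest open above. Normexp correction (limma 3.58.1, offset 50) used median foreground and background intensities. Coding symbols were updated through RefSeq. The counting was tested on simulated data. Named lnc- probes were those with the largest differences, the highest new, lost or mock levels, or the largest gaps between drugs, probes or namesake genes; families and RefSeq matches were added after their values were seen. The members and lists were chosen with earlier results of these data known. The number of arrays limits the precision. Probe and transcript sequences were not used here. The induced lnc- probe of the Wnt and colon list is not reported here.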

Additional observations from a re-analysis of the deposited data

How the results depend on the processing

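No paired analysis was possible because there was a single array for every treatment, which also left no replicate to omit. Over 224 alternative values of the main results, 169 stayed close to the main value, 55 moved and 0 reversed. A count could be scored only as close or moved, so a reversal was possible only for medians, gaps and share ratios. The order of induced and reduced counts, and that of gains and losses of detection, did turn in some settings, as given above. The deposited table gave the same values as the scanner signals. Keeping marked spots or taking 1 probe per lnc- gene left every main value scored as close.

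For the counts of induced and reduced probes the level threshold mattered most. Without it the induced lnc- probes numbered 526 with DAC, 647 with OR-2003, 488 with OR-2100 and 313 with all 3, and the reduced ones 1283, 991, 1812 and 557. With a level of 0, induced probes numbered 34 with OR-2003 and 34 with OR-2100, and reduced ones 56, 55, 43 and 40. At 4-fold, induced probes numbered 27 with DAC, 29 with OR-2100 and 27 with all 3, and reduced ones 14, 14, 12 and 11. With normexp the reduced probes numbered 44, 43, 36 and 28. With the scale set on probes measured on all 4 arrays, 59, 49 and 41 were reduced with OR-2003, OR-2100 and all 3.

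The induced share of lnc- over NM_ probes of like signal was 0.669 with DAC and 0.705 with OR-2100 under normexp. It was 0.725, 0.744, 0.753 and 0.766 with a level of 0, and 0.369 for all 3 drugs without a level. With bins of the mock signal it was 0.0901, 0.105, 0.0983 and 0.0912. It stayed under 1 in every alternative run.

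The median lnc- difference was -0.13, -0.043, -0.091 and, for the mean of the drugs, -0.11 with the scale set on probes measured on all 4 arrays. It was -0.13 with DAC over all probes, detected or not, and -0.47 with OR-2003 when the median of gene probes was set to 0. Its gap to NM_ probes was -0.35, -0.27, -0.31 and -0.32 with bins of the mock signal, -0.029, -0.026 and -0.014 over all probes, and -0.064, -0.040 and -0.051 with normexp. The scalings moved the median of all gene probes by up to 0.23.

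Between drugs, 0 lnc- probes were 2-fold apart in each pair with normexp. For DAC and OR-2003 the count was 1 with quantile normalization and 1 with median scaling, and for OR-2003 and OR-2100 it was 23 with median scaling. Of 112 named lnc- probes, 14 changed sign with the scale set on probes measured on all 4 arrays, 10 with quantile normalization, 2 with normexp and 1 with median scaling, all with a main difference under 2-fold. With normexp 91 of the 112 moved by more than spots of 1 dim probe varied (median SD 0.16), by up to 4.72. Signals near the background limit are read with the least precision.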
